A study of Mus musculus with 3 samples.

Results

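Among Ly6Chi monocytes sorted from mouse livers injured with acetaminophen, 182 of 16021 cells met a rule meant to find cycling cells, built on genes of DNA replication and mitosis. A cell met it when it held a unique molecular identifier (UMI, a tag that marks 1 captured RNA molecule) of at least 2 of 12 genes, which were Mki67, Top2a, Birc5, Ube2c, Cdk1, Ccnb1, Ccnb2, Ccna2, Cdc20, Pclaf, Tyms and Rrm2. Before that, barcodes with under 500 detected genes or over 10% mitochondrial UMIs were left out. The members were chosen by the measured UMIs of these 12 genes, so their levels describe the rule and test nothing. The members are called rule-positive cells here: 119 of them held exactly 2 of the genes and were close to cells with none in other replication genes, so that the rule mixes dividing cells with cells not shown to divide. In mitosis genes such cells were less close in knockout 4, at 1.81 times the cells with none.

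There were 3 droplet libraries of male C57BL/6 mice aged 8 weeks, fasted for 12 h, given 300 mg/kg acetaminophen into the peritoneum and fed again 2 h later, with livers taken at 24 h. Knockout 4 came from LysMDCommd10 mice, in which Cre driven from the lysozyme 2 (Lyz2) locus, active in monocytes, macrophages and neutrophils, deletes Commd10, a gene whose protein acts in endosomal sorting. Control 1 and control 3 came from Commd10fl/fl mice. The labels do not give the number of mice per library, so no p-value measures spread between mice. The p-values rest on library-to-library spread, which may be technical, moderated by spread borrowed across genes.

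The knockout library held 30302932 UMIs and the controls 40092348 and 72867668 (control 1 and control 3), with medians per cell that passed of 6865 UMIs in knockout 4, 8770 in control 1 and 8160 in control 3. Commd10 itself stood at 8.41 CPM (UMIs of the gene scaled to a fixed total of all UMIs of the same cells) in knockout 4, against 17.6 CPM in control 1 and 10.3 CPM in control 3. The labels do not say which exons were deleted, so these 3′ counts do not check the deletion. Among cells that passed, 29 barcodes occurred in more than 1 library; 4 rule-positive cells carried such a barcode, and 0 barcodes marked a rule-positive cell in both libraries. No doublet caller was run, and deep cells, those whose UMI count was over 2 times the median of the library, were 7.41%, 14.5% and 33.9% of the rule-positive cells (knockout 4, control 1, control 3), against 2.39%, 8.21% and 10.9% of the other cells.

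A dividing cell first copies its DNA in S phase, with nucleotides made by enzymes such as thymidylate synthase (Tyms) and ribonucleotide reductase (Rrm2), and then separates the copies in mitosis under the control of cyclin B and Cdk1. Ly6Chi monocytes arise in the bone marrow from dividing progenitors that make neutrophil-type granule proteases, and most stop dividing before they leave for the blood. In injured liver they turn into macrophages. E2F factors drive genes of S phase through sites such as TTTNNCGC, and the DREAM and MuvB complexes act on genes of G2 and mitosis through TTTGAA elements, often beside CCAAT boxes bound by NF-Y.

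Promoters of 3 rule genes are shown because they span these classes: Ccnb2 (cyclin B2, mitosis), Cdk1 (the cyclin-dependent kinase that starts mitosis) and Pclaf (a PCNA partner in DNA replication). Each run covers 200 bases before to 20 bases after the start on the gene's strand (RefSeq, GRCm38.p6), at chr9:70421535-70421754 (Ccnb2, minus strand), chr10:69352893-69353112 (Cdk1, minus strand) and chr9:65890123-65890342 (Pclaf, plus strand). Capitals mark the TTTGAA element, the CCAAT box (ATTGG on the other strand) and the site TTTNNCGC, each on either strand.
Ccnb2: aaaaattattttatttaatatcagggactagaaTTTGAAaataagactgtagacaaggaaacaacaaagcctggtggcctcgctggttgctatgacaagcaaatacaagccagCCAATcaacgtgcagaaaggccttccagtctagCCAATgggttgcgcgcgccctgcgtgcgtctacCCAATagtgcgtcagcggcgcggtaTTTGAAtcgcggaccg
Cdk1: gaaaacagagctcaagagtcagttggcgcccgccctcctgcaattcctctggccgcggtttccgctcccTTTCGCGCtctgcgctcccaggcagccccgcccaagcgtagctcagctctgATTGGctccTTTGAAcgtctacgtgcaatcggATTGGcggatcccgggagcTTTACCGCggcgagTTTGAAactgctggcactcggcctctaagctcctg
Pclaf: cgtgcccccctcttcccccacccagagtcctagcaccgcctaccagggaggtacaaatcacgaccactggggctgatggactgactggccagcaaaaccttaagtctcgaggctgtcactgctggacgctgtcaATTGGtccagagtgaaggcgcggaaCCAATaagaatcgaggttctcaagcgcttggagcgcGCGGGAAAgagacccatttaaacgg

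Over the longer window of 250 bases before to 50 after the start, 11 of the 12 rule genes had a promoter in the RefSeq table. TTTGAA was present in 6 of these 11 (Ube2c, Cdc20, Mki67, Ccnb2, Cdk1, Top2a), and in 17.9% of all 32851 promoters. CCAAT was present in 9 of 11 and in 37.4% of all promoters. TTTNNCGC was present in 3 of 11 (Tyms, Pclaf, Cdk1) and in 5.17% of all promoters. The Ccnb2 stretch held TTTGAA 2 times and CCAAT 3 times, Cdk1 held all 3 motifs, and Pclaf held no TTTGAA. Such matches describe letters and not bound sites.

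Rule-positive cells made up 1.21% of knockout 4 (54 of 4457 cells, exact Clopper-Pearson 95% interval 0.911 to 1.58%), 1.68% of control 1 (69 of 4115, 1.31 to 2.12%) and 0.792% of control 3 (59 of 7449, 0.604 to 1.02%). Knockout 4 lay between the controls, which themselves differed by 2.12 times, and its ratio to the control mean was 0.982. With 1 knockout library no test of the share exists, and these intervals cover counting error only. Within each library the rule-positive cells were the deeper ones, with medians of 8685.5, 10497 and 12935 UMIs (knockout 4, control 1, control 3), above the other cells of the same libraries at 6848, 8733 and 8142.5 UMIs.

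After each cell was thinned to 3000 UMIs, leaving out 757, 527 and 713 shallower cells, the expected share of rule-positive cells was 0.679% in knockout 4, 0.513% in control 1 and 0.135% in control 3. The ratio of knockout 4 to the control mean then became 2.10, that to control 1 alone was 1.32 and that to control 3 alone 5.05. Thinning also makes the rule stricter, and with no thinning the order of knockout 4 and control 1 was the same with at least 3 rule genes, at 0.651% and 0.486%. Control 3 was the lowest library under each of these rules.

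**Figure D1:**
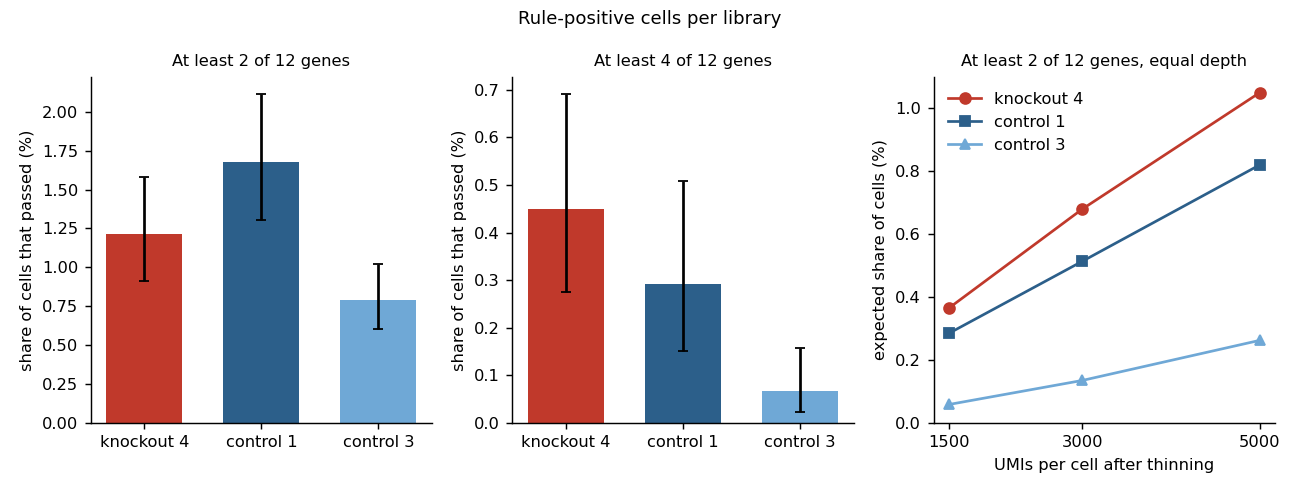
Share of cells in each library (y axis, percent) with at least 2 rule genes (left) or at least 4 rule genes (middle), with exact 95% intervals for counting error, and the expected share with at least 2 rule genes after thinning each cell to 1500, 3000 or 5000 UMIs (right). Control 1 is highest at 1.68% in the left panel; knockout 4 is highest in the other panels, at 0.449% in the middle one.

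Most rule-positive cells met the rule narrowly. Exactly 2 rule genes were found in 25, 49 and 45 cells (knockout 4, control 1, control 3), 3 genes in 9, 8 and 9 cells, and 4 or more in 20, 12 and 5 cells. Just outside the rule, 271, 379 and 621 cells held a UMI of 1 rule gene. Of the 119 cells with exactly 2 genes, 82 held just 2 rule-gene UMIs, and their commonest pairs were Ccnb2 with Pclaf in 15 cells, Mki67 with Top2a in 11 and Ube2c with Ccnb2 in 10. The highest count in a cell was 141 rule-gene UMIs.

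Cells with 4 or more rule genes made up 0.449% of knockout 4 (0.274 to 0.692%), 0.292% of control 1 (0.151 to 0.509%) and 0.0671% of control 3 (0.0218 to 0.157%). They were 37.0% of the rule-positive cells of knockout 4, 17.4% of those of control 1 and 8.47% of those of control 3. This makeup differed between the libraries before any gene was compared, and the values below are to be read beside it. Of these 37 cells, 32 held both an S phase gene of the rule (Pclaf, Tyms, Rrm2) and a mitotic one, and 5 held mitotic genes alone.

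The rule genes differed in how far they marked the rule's cells. Ccnb2 had a UMI in 37 of 54, 26 of 69 and 22 of 59 rule-positive cells (knockout 4, control 1, control 3), but in 25, 26 and 13 other cells. Birc5, which encodes survivin of the chromosomal passenger complex, was found in 27, 15 and 8 rule-positive cells and in 8, 9 and 14 other cells. Mki67, the gene of the Ki-67 antigen on mitotic chromosomes (chr7:135689784-135716361, GRCm38), was instead found in 19, 35 and 25 rule-positive cells and in 59, 92 and 190 other cells, which had no second rule gene. Tyms likewise was found in 11, 16 and 16 rule-positive cells and in 50, 68 and 140 other cells. A single UMI of Mki67 or Tyms was thus more often found outside the rule's cells than inside them in all 3 libraries.

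The label was checked against cell-cycle lists that the rule did not name. Summed over the list for S phase and replication, cells with 0, 1, 2, 3 and 4 or more rule genes stood at 548, 632, 693, 1047 and 2653 CPM in knockout 4. The same order gave 581, 635, 711, 630 and 4063 CPM in control 1, and 558, 589, 706, 1236 and 736 CPM in control 3. The list for G2 and mitosis stood at 5309, 6165, 9583, 12940 and 22710 CPM in knockout 4, at 5820, 6158, 7101, 9280 and 21500 CPM in control 1 and at 5695, 5834, 6285, 10530 and 11330 CPM in control 3. The mitosis list was thus high in cells with 4 or more rule genes of knockout 4 and control 1. The replication sums there rested on few cells: 2 of 20 in knockout 4, at 118 and 93.2 UMIs per 10000, and 3 of 12 in control 1, at 99.5, 95.1 and 89.0, with the next cells at 30.6 and 38.05. Cells with exactly 2 genes lay at 1.22 to 1.27 times the replication list of cells with none. For the mitosis list they lay at 1.81, 1.22 and 1.10 times (knockout 4, control 1, control 3), so these cells differed between the libraries too. In control 3 the replication list of its 5 highest cells was at 1.32 times that of cells with no rule gene.

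Of single genes, Hmgb2, Stmn1 and Ccnd3 were higher in cells with 4 or more rule genes of each library, while Ccnd1 had no UMI there. Mcm5 was higher in such cells of knockout 4 and control 1. Hmgb2, a chromatin protein of dividing cells (chr8:57511907-57515999), stood at 2796, 2841 and 1298 CPM in cells with 4 or more rule genes (knockout 4, control 1, control 3), at 867.5, 320 and 354 CPM in cells with 2 or 3, and at 159, 194 and 203 CPM in the other cells. Stmn1, which encodes the microtubule regulator stathmin, stood at 505, 586 and 187 CPM in cells with 4 or more rule genes, and at 7.42, 7.27 and 4.43 CPM in the other cells. The replication helicase gene Mcm5 stood at 80.4, 165 and 12.5 CPM in the highest cells of knockout 4, control 1 and control 3, against 5.57, 6.21 and 4.63 CPM in other cells. The control 3 value rests on 1 UMI, below the 37.4 CPM that 3 counts make there. Ccne1, the G1/S cyclin E1, had UMIs in 2, 4 and 0 of the highest cells. The cyclin D gene Ccnd3 stood at 281, 363 and 225 CPM in the highest cells and 125, 102 and 150.3 CPM in other cells. Ccnd1, cyclin D1, had 0 UMIs in the highest cells of all 3 libraries, which allows up to 17.2, 24.8 and 37.4 CPM. Over all rule-positive cells Ccnd1 stood at 0, 30.2 and 32.5 CPM, against 3.25, 16.8 and 11.5 CPM in other cells, and between knockout and control rule-positive cells it passed the test described below as lower (adjusted p = 0.0292, edgeR).

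Hist1h1b, which encodes a linker histone made in S phase, stood at 402, 363 and 37.4 CPM in cells with 4 or more rule genes of knockout 4, control 1 and control 3, and at 27.6, 33.2 and 41.9 CPM in other cells. The whole list of replication-dependent histones stood at 2084, 1883 and 611 CPM in those cells, and at 371, 424 and 413 CPM in all other cells. In these histone genes the 5 cells of control 3 were therefore the lowest of the 3 sets.

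**Figure D2:**
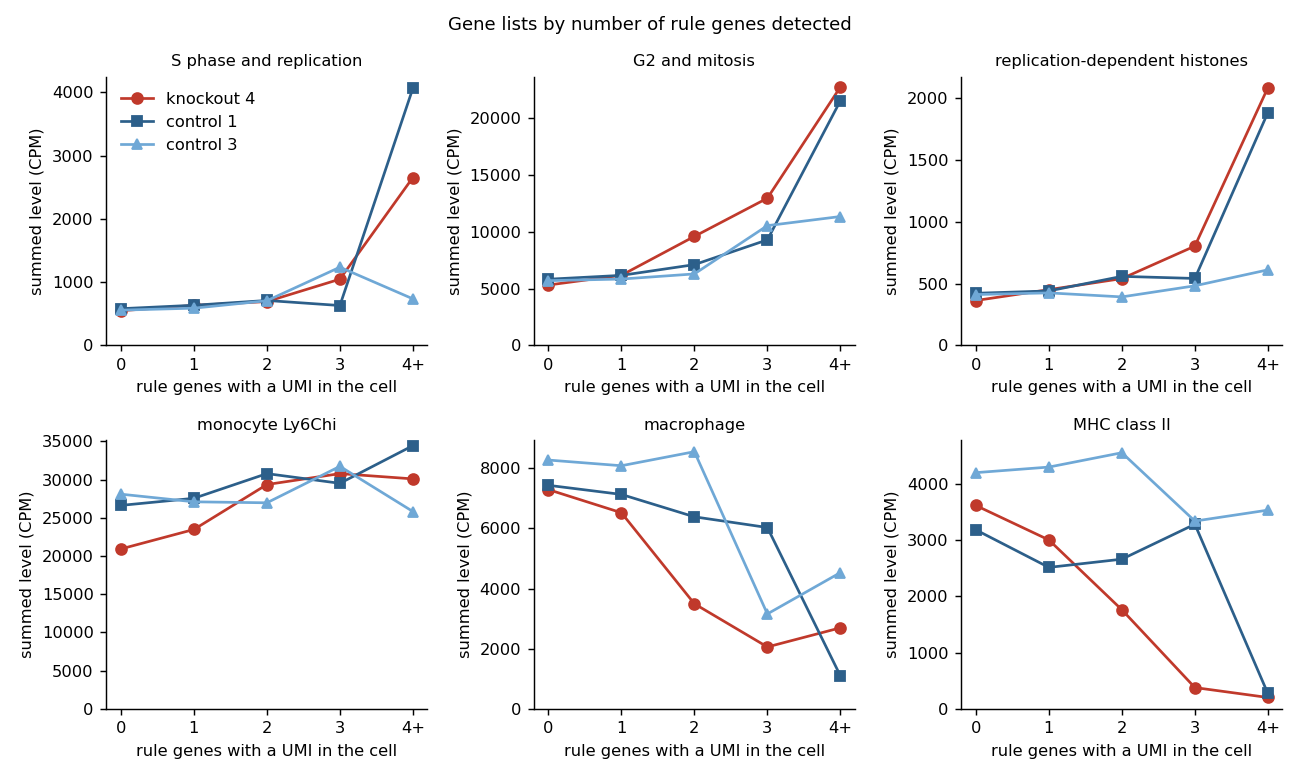
Summed level of 6 gene lists (y axis, CPM) in cells with 0, 1, 2, 3 or at least 4 rule genes (x axis), with 1 line per library. Replication, mitosis and histone lists are highest in cells with at least 4 rule genes in knockout 4 and control 1; the MHC class II list falls to 201 CPM and 273 CPM there, and stands at 3531 CPM in control 3.

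Seen cell by cell, mitotic machinery genes, the G2 and mitosis list without its abundant tubulin and chromatin genes, had medians of 35.0, 45.7 and 9.98 UMIs per 10000 in cells with 4 or more rule genes (knockout 4, control 1, control 3). Cells with no rule gene had medians of 3.96, 3.90 and 4.28 per 10000. The highest single cells reached 205 in knockout 4, 129 in control 1 and 44.1 per 10000 in control 3 among those with 4 or more rule genes. A knockout cell with 16519 UMIs held 141 rule-gene UMIs, and it comes back below because it carried much of several mitotic genes. Replication genes had medians of 8.36, 9.87 and 7.29 per 10000 in the cells with 4 or more rule genes, against 4.97, 5.49 and 5.23 in cells with none, and the highest cells reached 118 in knockout 4, 99.5 in control 1 and 9.80 in control 3.

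**Figure D3:**
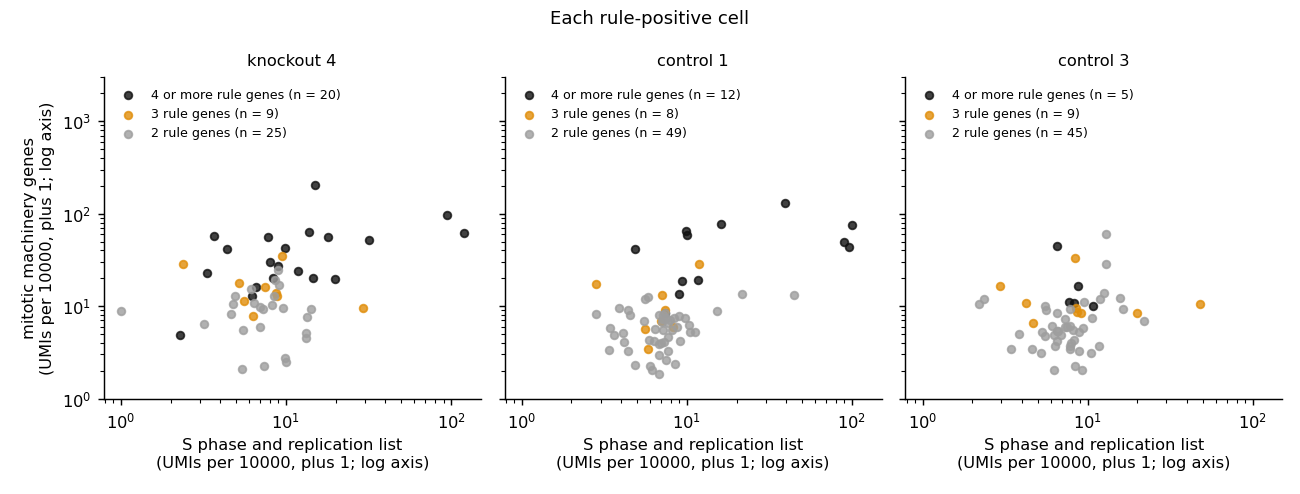
Each of the 182 rule-positive cells by its UMIs per 10000 in the replication list (x axis) and in mitotic machinery genes (y axis), both plus 1 on log axes, with 1 panel per library and colour for the number of rule genes. Cells with 2 rule genes lie mostly low on both axes, and the highest cells on both axes are in knockout 4 and control 1.

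Of the 182 rule-positive cells, 144 (79.1%) carried both of a pair of monocyte genes, as did 48.3% of the other cells. By library this was 83.3%, 69.6% and 86.4% of rule-positive cells (knockout 4, control 1, control 3), against 43.8%, 37.4% and 56.9% of other cells. Cells with both Ly6c2, the Ly6C antigen, and Vcan, the matrix proteoglycan versican of classical monocytes, met the rule in 1.85% of cases (144 of 7795, median 8711 UMIs). Cells with patrolling monocyte markers, defined by genes of Ly6C-low monocytes, met it in 0.943% of cases (30 of 3181, median 9389 UMIs). C1q-positive cells met it in 1.20% (47 of 3904, median 9461 UMIs), cells with Gpnmb and Lpl in 1.23% (33 of 2684, median 10618.5 UMIs), and cells with S100a8 and S100a9 in 3.14% (21 of 669, median 8581 UMIs). Cells with at least 2 genes of a T, NK or B cell list met it in 2.55% (13 of 510, median 9751.5 UMIs). Cells with Prtn3 met it in 4.15% (101 of 2436), and those with Prtn3 and Serpinb1a in 6.06% (45 of 743). These rates pool the libraries: Ly6c2 and Vcan cells met the rule in 2.28%, 3.07% and 1.20% of cases (knockout 4, control 1, control 3). In control 3 C1q-positive cells were near that at 1.17%, and cells with Gpnmb and Lpl above it at 1.40%. At least 4 rule genes were found in 31 of the Ly6c2 and Vcan cells and in 4 of the patrolling-marker cells. No cell class here is known to hold no dividing cells, so the share that free RNA alone gives under the rule was not measured.

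In the 37 cells with 4 or more rule genes, the T cell list had 0 UMIs in all 3 libraries, the NK cell list 0, 1 and 1 UMIs (knockout 4, control 1, control 3) and the erythroid list 0. Kupffer cell and basophil or mast cell lists were also at 0, and the neutrophil genes Ly6g, Camp, Ngp, Ltf and Retnlg had 0 UMIs in them, while the whole neutrophil list, which also holds genes that monocytes express, stood at 890, 2015 and 274.5 CPM. The B cell list had 6, 16 and 4 UMIs, and 2 of the 12 such cells of control 1 (16.7%) held at least 2 genes of the T, NK or B cell lists, against 4.75% of its other cells. Over all rule-positive cells, at least 2 genes of the T, NK or B cell lists were present in 3, 8 and 2 cells, and their part in the comparisons below was measured by leaving those cells out.

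Against the other cells of the same libraries, rule-positive cells had more RNA of the granule protease gene Prtn3 and of the monocyte genes Ly6c2 and F13a1, and less of the chemokines Cxcl9 and Cxcl10 and of Spp1, Cd36 and Cd9. Most genes of the lists that hold them did not pass: 3 of 13 Ly6Chi genes, 3 of 15 chemokines, 3 of 9 lipid-associated genes and 1 of 13 macrophage genes did. This comparison used UMI sums of each library with edgeR's quasi-likelihood test, the library as a block, over 12174 genes that were in neither the rule nor the cell-cycle lists. At an adjusted p under 0.05, 29 genes were higher (0.238% of those tested) and 25 lower (0.205%), together 0.444%.

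Prtn3 encodes proteinase 3, a protease that myeloid progenitors pack into granules (chr10:79874476-79883174). It stood at 139.6, 103 and 78.8 CPM in rule-positive cells of knockout 4, control 1 and control 3, against 28.1, 27.1 and 29.0 CPM in other cells. Every library's rule-positive cells were above every library's other cells. The difference was 1.81 on the log2 scale (SE 0.17, adjusted p = 0.000261, edgeR), and it was 2.16 after thinning to 3000 UMIs. Prtn3 was the single named gene that also passed without the library block (adjusted p = 0.0292). Serpinb1a, an inhibitor of such proteases, stood at 57.1, 39.2 and 31.5 CPM in rule-positive cells and at 19.1, 13.1 and 18.2 CPM in other cells (log2 difference 1.23, SE 0.22, adjusted p = 0.0311, edgeR); without cells bearing lymphocyte markers its adjusted p was 0.0627.

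Other granule genes of the progenitor list had few UMIs. Mpo, the myeloperoxidase gene, had 0 UMIs in the cells with 4 or more rule genes of all 3 libraries, as had Ms4a3, while Elane, neutrophil elastase, had 0, 3 and 0 UMIs there. Over all rule-positive cells Elane stood at 6.35, 10.1 and 11.8 CPM, against 3.01, 1.97 and 0.701 CPM in other cells, and did not pass (adjusted p = 0.0713, edgeR). Of the 13 genes of the list, 8 could be fitted, all above 0; 2 of these rose, Prtn3 and Serpinb1a, and the median log2 difference of the 8 was 0.85, beside -0.05 over all genes.

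Ly6c2 (chr15:75108158-75111970) stood at 1688, 958 and 921 CPM in rule-positive cells of knockout 4, control 1 and control 3, against 573, 473 and 604 CPM in other cells. The log2 difference was 0.99 (SE 0.14, adjusted p = 0.00917, edgeR), and all values of rule-positive cells exceeded all others. F13a1, coagulation factor XIII of classical monocytes, stood at 1362, 790 and 841 CPM in rule-positive cells and at 672, 477 and 674 CPM in other cells (log2 difference 0.62, adjusted p = 0.0465, edgeR). Of the 13 genes of the Ly6Chi list 3 rose, Ly6c2 and F13a1 among them, and none fell by the test, with a median log2 difference of 0.16.

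Further genes rose that the fixed lists do not hold. The cell-cycle lists may not hold every gene of the cell cycle, so these genes are not shown to be independent of the rule. Lbr, a sterol reductase that anchors chromatin to the nuclear envelope, stood at 173.5, 112 and 87.7 CPM in rule-positive cells of knockout 4, control 1 and control 3, and at 42.4, 42.4 and 55.7 CPM in other cells (log2 difference 1.27, adjusted p = 0.0188, edgeR). Itga1, the collagen-binding integrin alpha 1 chain, stood at 65.6, 28.0 and 27.6 CPM in rule-positive cells and 17.98, 9.81 and 15.1 CPM in other cells (log2 difference 1.33, adjusted p = 0.0311, edgeR, and 0.0559 without cells bearing lymphocyte markers). Lsm5 of the RNA-splicing and decay Lsm ring, the selenoprotein gene Selenoh, Rdm1, Lbp, Ccdc88c, Gm21596 and I830127L07Rik were also among the 12 largest rises, at log2 differences of 1.14 to 1.69. Of the neutrophil list, Lcn2, which encodes the iron-siderophore binder lipocalin 2, rose (437.9, 271 and 166.5 CPM in rule-positive cells against 266, 129 and 111 CPM in other cells; log2 difference 0.73). S100a9, the calprotectin subunit, fell instead, at 38.1, 47.0 and 9.85 CPM in rule-positive cells against 236, 77.7 and 39.3 CPM in other cells (log2 difference -1.72, adjusted p = 0.0248, edgeR, and 0.0642 without cells bearing lymphocyte markers). Its partner S100a8 did not pass, at 1125, 911 and 403 CPM in rule-positive cells against 1276, 523 and 245 CPM in other cells, higher in rule-positive cells of both controls. The fall of S100a9 was one of summed UMIs, and cells with S100a8 and S100a9 were not rarer. Such cells were 11.11%, 13.04% and 10.17% of rule-positive cells (knockout 4, control 1, control 3). They were 7.495%, 4.202% and 2.003% of other cells. In control 1 a single cell held 23 of the 42 S100a9 UMIs of rule-positive cells.

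**Figure D4:**
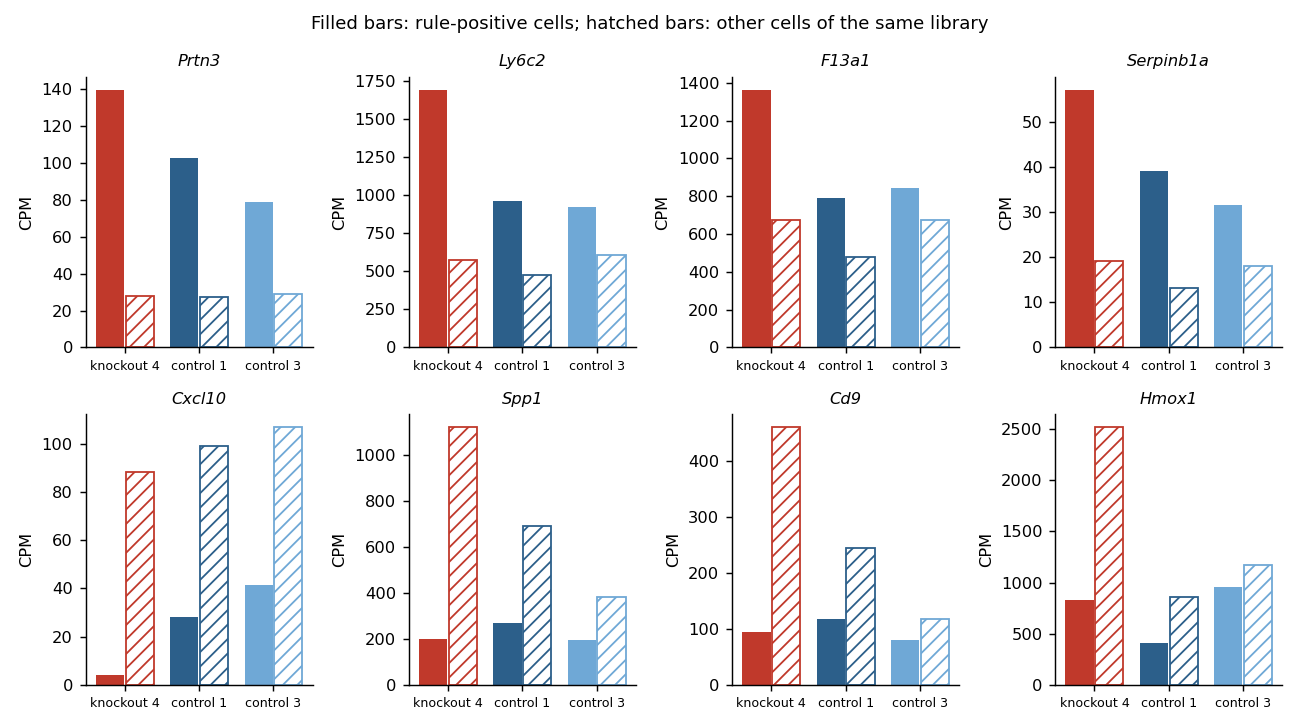
Levels (y axis, CPM) of 8 genes in rule-positive cells (filled bars) and other cells (hatched bars) of each library. Prtn3, Ly6c2, F13a1 and Serpinb1a are higher in rule-positive cells of each library, and Cxcl10, Spp1, Cd9 and Hmox1 are lower.

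Chemokines induced by interferon were among the genes that fell. Cxcl10, a CXCR3 ligand, stood at 4.23, 28.0 and 41.4 CPM in rule-positive cells of knockout 4, control 1 and control 3, against 88.0, 98.8 and 107 CPM in other cells (log2 difference -1.93, SE 0.26, adjusted p = 0.00821, edgeR). Cxcl9, another CXCR3 ligand, had 6 UMIs over all rule-positive cells, where 49.8 were expected from the other cells of their libraries, a ratio of 0.121 (exact Poisson 95% interval 0.0442 to 0.262). Of the chemokine list 3 of 15 fell, the third being Ccl5, and the median log2 difference of the list was -0.65. Ccl5 had 2 UMIs over all rule-positive cells against 35.1 expected. It did not pass without cells bearing lymphocyte markers, nor after thinning to 3000 UMIs. Of the type I interferon list 1 of 19 fell, which was again Cxcl10, and the median was -0.56.

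Of the lipid-associated macrophage list, 3 genes were lower. Spp1, osteopontin, stood at 199, 268.5 and 194 CPM in rule-positive cells and at 1118, 688 and 383 CPM in other cells (log2 difference -1.64, SE 0.21, adjusted p = 0.00566, edgeR). Cd36, a fatty acid and lipoprotein receptor, and Cd9, a tetraspanin, fell by 1.31 each on the log2 scale, and these 3 were the ones that passed among 9 genes of the list, whose median was -0.85. In each of these 3 genes the other cells of knockout 4 were the highest set, at 1118 CPM for Spp1, 211 CPM for Cd36 and 461 CPM for Cd9. Hmox1, heme oxygenase 1, stood at 833, 404 and 954 CPM in rule-positive cells and 2517, 862 and 1167 CPM in other cells (log2 difference -1.06, adjusted p = 0.0274, edgeR). Without cells bearing lymphocyte markers neither Cd9 (adjusted p = 0.0583, edgeR) nor Hmox1 (0.0515) passed.

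All 13 macrophage genes had a fitted difference below 0, with a median of -0.37 (-0.13 in control 3), but Cd63, a tetraspanin of late endosomes, was the 1 that passed. The MHC class II list, whose 7 genes present antigen to T helper cells, had none that passed. Its sum stood in cells with 4 or more rule genes at 201 CPM in knockout 4, 273 CPM in control 1 and 3531 CPM in control 3, against 3613, 3180 and 4197 CPM in cells with none. Control 3 thus departed from the other libraries, and 2 of its 5 highest cells had over 2 times the library's median UMI count and held 60.7 and 64.5 class II UMIs per 10000, while its other 3 held 2.20 to 4.08.

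RNA of red cells and antibody-secreting cells was rarer in rule-positive cells. Igkc, the immunoglobulin kappa constant region, had 7 UMIs against 192 expected, and Igha had 1 UMI against 82.4 expected. Hbb-bs, a beta globin gene, had 1 UMI against 59.5 expected, and 3 of 4 erythroid genes tested fell, the others being Hba-a1 and Hba-a2. The expected counts assume an even spread over the other cells, which this RNA did not have. In cells with 1 rule gene the erythroid list stood at 164 times that of cells with none in control 3, and at 0.0125 times in control 1. Igha had 3 UMIs in other cells of knockout 4, against 2294 in control 1 and 2047 in control 3. Without cells bearing lymphocyte markers, Igkc (adjusted p = 0.425, edgeR) and Igha no longer passed. Leaving out those cells, of which 13 were rule-positive, lowered the genes called in this comparison to 8 higher and 7 lower.

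Between knockout and control rule-positive cells, 10 of 63 genes of the G2 and mitosis list were higher in the knockout library, while 4 of 13 macrophage, 2 of 7 class II and 2 of 8 patrolling genes were lower. The share of cells with 4 or more rule genes was higher too, at 37.0% in knockout 4 against 17.4% and 8.47% in control 1 and control 3, and its part in these differences was not tested beyond the values below. The G2 and mitosis list is not independent of the rule, so its values describe the chosen cells and do not test the knockout. The test had 1 knockout sum against 2 control sums, with 1 residual degree of freedom, so the knockout and its library cannot be told apart. The spread used for each gene was drawn mostly from other genes. Unlike the comparison with other cells, it kept the rule genes and the cell-cycle lists among the genes tested. Of 7920 genes tested, 24 were higher (0.303%) and 23 lower (0.290%), together 0.593%, and DESeq2 called 3 and 5. The 24 higher genes include 3 rule genes and 10 of the G2 and mitosis list, whose values do not test the knockout. The 23 lower ones include Ccnd1 of the list of G1 cyclins and kinases.

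As a description, the G2 and mitosis list had a median log2 difference of 1.62, beside -0.01 over all genes. Hmgb2 stood at 1578 CPM in knockout 4 and at 661 and 428.5 CPM in control 1 and control 3 (log2 difference 1.55, SE 0.23, adjusted p = 0.0146, edgeR). Among cells with 3 or more rule genes the Hmgb2 difference was 0.55 and did not pass (adjusted p = 0.141, edgeR). H2afz, a histone variant, stood at 2547 CPM in knockout 4 and at 1373 and 1161 CPM in the controls (log2 difference 1.02, adjusted p = 0.0276, edgeR). Cks1b, a Cdk-binding subunit, stood at 154 CPM in knockout 4 and at 48.1 and 26.6 CPM in the controls, and Cenpa, the centromeric histone, at 220.0 CPM in knockout 4 and at 71.6 and 70.0 CPM in the controls. Neither Cks1b nor Cenpa passed among cells with 3 or more rule genes or with DESeq2, and Cenpa did not pass after thinning to 3000 UMIs.

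A few cells carried part of this. Cenpf, a kinetochore protein, stood at 74.0 CPM in knockout 4 and at 10.1 and 6.90 CPM in the controls (log2 difference 3.13, adjusted p = 0.00768, edgeR), but 22 of its 35 knockout UMIs lay in the cell with 16519 UMIs, and without that cell the knockout level was 28.5 CPM. Cdkn3, a phosphatase of Cdk1, stood at 104 CPM in knockout 4 and at 16.8 and 10.8 CPM in the controls (log2 difference 2.93, adjusted p = 0.00454, edgeR), and at 83.9 CPM in knockout 4 without its highest cell. Without cells of high UMI count Cenpf no longer passed, and after thinning to 3000 UMIs neither Cenpf nor Cdkn3 did. The rule's own genes were in this fit, but their levels describe the rule and test nothing. Among them Ube2c stood at 129 CPM in knockout 4 against 28.0 and 24.6 CPM in the controls, with 39 of 61 knockout UMIs in the same cell, and Birc5 at 131 CPM against 36.9 and 17.7 CPM.

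The replication list had none of 39 tested genes past the threshold in either direction, with a median log2 difference of 0.70. Its median was 0.39 against control 1 alone and 0.85 against control 3 alone. The histone list had none of 12 tested, with a median of 1.06.

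Saa3, an acute-phase apolipoprotein made by inflamed macrophages (chr7:46711998-46715700), stood at 364 CPM in knockout 4 and at 51.5 and 66.0 CPM in control 1 and control 3 (log2 difference 2.64, SE 0.25, adjusted p = 0.000769, edgeR). A single cell held 74 of its 172 knockout UMIs, and without it knockout 4 stood at 212 CPM, still above both controls; 21 of the 54 knockout cells held a UMI of it. Hp, haptoglobin, stood at 1758 CPM in knockout 4 and at 934 and 807 CPM in the controls, and Mmp8, neutrophil collagenase, at 283.5 CPM in knockout 4 and at 126 and 120.2 CPM in the controls. Gm42418, whose locus overlaps ribosomal RNA sequence, had the lowest p, but 1793 of its 2920 knockout UMIs came from a cell with 4136 UMIs in all, and without it knockout 4 stood at 2405 CPM, against 1791 and 1837 CPM in the controls.

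Of macrophage genes 4 of 13 fell and none rose, with a median log2 difference of -1.05. Apoe, apolipoprotein E, stood at 1079 CPM in knockout 4 and at 2773 and 4465 CPM in control 1 and control 3 (log2 difference -1.73, adjusted p = 0.0146, edgeR). C1qa and C1qc, chains of complement C1q, stood at 48.7 and 65.6 CPM in knockout 4, at 176 and 198 CPM in control 1 and at 349 and 257 CPM in control 3. Axl, a receptor that binds dying cells, had 1 UMI in knockout 4 against 41 and 54 in the controls. Neither Apoe nor Axl passed with DESeq2, and Axl did not pass without cells of high UMI count. The sums here and for the class II and patrolling lists below give deep cells more weight. Deep cells were 7.41%, 14.5% and 33.9% of the rule-positive cells (knockout 4, control 1, control 3). Lpl, lipoprotein lipase, stood at 52.9 CPM in knockout 4 and at 458 and 265 CPM in the controls (log2 difference -2.75, adjusted p = 0.0144, edgeR).

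Of the class II list 2 of 7 fell, Cd74 and H2-Aa, with a median of -1.63. Cd74, the invariant chain, stood at 410 CPM in knockout 4 and at 1328 and 2507 CPM in control 1 and control 3 (log2 difference -2.21, adjusted p = 0.0146, edgeR). A single knockout cell held 108 of its 194 UMIs, and Cd74 did not pass with DESeq2. In the cells with 4 or more rule genes Cd74 stood at 63.2 CPM in knockout 4, 82.6 CPM in control 1 and 1759 CPM in control 3, so that the distance between knockout 4 and control 1 was smaller there.

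Of the patrolling list 2 of 8 fell. Cx3cr1, the fractalkine receptor, stood at 46.5 CPM in knockout 4 and at 238 and 326 CPM in control 1 and control 3 (log2 difference -2.58, SE 0.34, adjusted p = 0.00752, edgeR). Ace, angiotensin-converting enzyme, had 0 UMIs in the knockout rule-positive cells against 33.6 and 38.4 CPM in the controls; against a limit of 3 counts, 6.35 CPM, knockout 4 was at least 5.67-fold lower than the control mean. Rgs1, a regulator of chemokine receptor signalling, stood at 71.9 CPM in knockout 4 and at 417 and 358 CPM in the controls, and Acp5, an acid phosphatase of macrophages, at 31.7 CPM in knockout 4 and at 236 and 186 CPM in the controls. Clec7a, the beta-glucan receptor dectin-1, and Il1b, interleukin 1 beta, also fell, at 110.0 against 377 and 440 CPM, and at 86.7 against 317 and 563.5 CPM. Il1b did not pass with DESeq2.

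The knockout effect in rule-positive cells was then set against the knockout effect in the other cells of the same libraries, as an interaction in edgeR with the library as a block and 1 residual degree of freedom. Here too the rule genes and the cell-cycle lists stayed among the genes tested. The knockout arm is 1 library, from which this effect cannot be told apart, and the spread was set almost wholly by moderation across genes, so the very small p-values below overstate the evidence. The lower interactions included Arg1, 10 chemokines and 12 glycolysis and hypoxia genes. Of 14223 genes tested, 93 had a higher effect in rule-positive cells (0.654%) and 237 a lower one (1.67%), together 2.32%. Without cells of high UMI count 89 passed, of which 84 were among these, and DESeq2 called 53, all among these. The 93 higher ones include 3 rule genes, 15 of the G2 and mitosis list and 5 histone genes. They also include 1 gene of the replication list and 2 of a list of CDK inhibitors. None of these genes is independent of the rule.

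Arg1, the urea-forming enzyme of repair macrophages (chr10:24915221-24927484), stood in knockout 4 at 110.0 CPM in rule-positive cells and 1536 CPM in other cells. In control 1 it stood at 310 CPM in rule-positive cells and 364 CPM in other cells, and in control 3 at 67.0 and 128 CPM. The knockout effect was lower in rule-positive cells by 3.40 on the log2 scale (SE 0.22, adjusted p = 1.05e-50, edgeR; -2.43 without cells of high UMI count). Arg1 UMIs were found in 21 of the 54 knockout rule-positive cells, with 17 of 52 in the highest one. The eotaxin gene Ccl24 stood at 55.0 CPM in knockout rule-positive cells and 781 CPM in other knockout cells, against 320 and 315 CPM in control 1 and 162.5 and 168 CPM in control 3 (interaction -3.90, SE 0.25, adjusted p = 3.49e-51, edgeR).

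Thbs1, thrombospondin 1, stood at 180 CPM in knockout rule-positive cells and 1072 CPM in other knockout cells, against 271 and 238 CPM in control 1 and 407 and 511 CPM in control 3 (interaction -2.56, adjusted p = 5.12e-36, edgeR). Cxcl3, a neutrophil attractant, had 4.23 CPM in knockout rule-positive cells and 203 CPM in other knockout cells. Of the chemokine list 10 of 15 had a lower knockout effect in rule-positive cells and none a higher one, with a median interaction of -1.48, beside -0.18 over all genes.

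Of the glycolysis and hypoxia list 12 of 21 had a lower knockout effect in rule-positive cells and none a higher one, with a median of -0.81. Between knockout and control rule-positive cells themselves none of 20 tested genes of that list passed (median 0.02). Ldha, lactate dehydrogenase A, stood at 694 CPM in knockout rule-positive cells and 1426 CPM in other knockout cells, against 739.5 and 910.1 CPM in control 1 and 630.5 and 787 CPM in control 3. Hilpda, a lipid droplet protein induced by hypoxia, stood at 16.9 CPM in knockout rule-positive cells and 138 CPM in other knockout cells, against 24.6 and 38.7 CPM in control 1 and 20.7 and 26.0 CPM in control 3. Vegfa, the vascular growth factor, had 0 UMIs in knockout rule-positive cells and 47.5 CPM in other knockout cells, at least 7.48-fold lower against the limit of 3 counts.

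Macrophage genes shared the direction, with 8 of 13 lower and none higher, as did 7 of 9 lipid-associated and 4 of 7 class II genes. Fth1, the ferritin heavy chain, stood at 5993 CPM in knockout rule-positive cells and 17720 CPM in other knockout cells, against 7744 and 12310 CPM in control 1 and 12120 and 14250 CPM in control 3 (interaction -1.19, adjusted p = 6.65e-24, edgeR). Cd74 and Apoe had interactions of -2.29 and -1.56, and Clec7a, Il1b, Rgs1 and the neutrophil attractant gene Cxcl2 ones of -2.65, -2.41, -2.42 and -1.86.

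In the opposite direction, the G2 and mitosis list had a median interaction of 1.76, beside -0.18 over all genes. This list is not independent of the rule, so its values are a description. Hmgb2 stood at 1578 CPM in knockout rule-positive cells and 159 CPM in other knockout cells, against 661 and 194 CPM in control 1 and 428.5 and 203 CPM in control 3 (interaction 1.80, SE 0.16). The monocyte genes Ly6c2, Ccr2 and Hp also had a higher knockout effect in rule-positive cells, 3 of the 13 in the Ly6Chi list. Ccr2, the receptor that brings monocytes out of the bone marrow, stood at 1432 CPM in knockout rule-positive cells and 858 CPM in other knockout cells, against 837 and 895 CPM in control 1 and 952 and 953 CPM in control 3 (interaction 0.71, adjusted p = 0.000148, edgeR). Rule-positive cells were the higher set in knockout 4 and the slightly lower one in both controls.

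**Figure D5:**
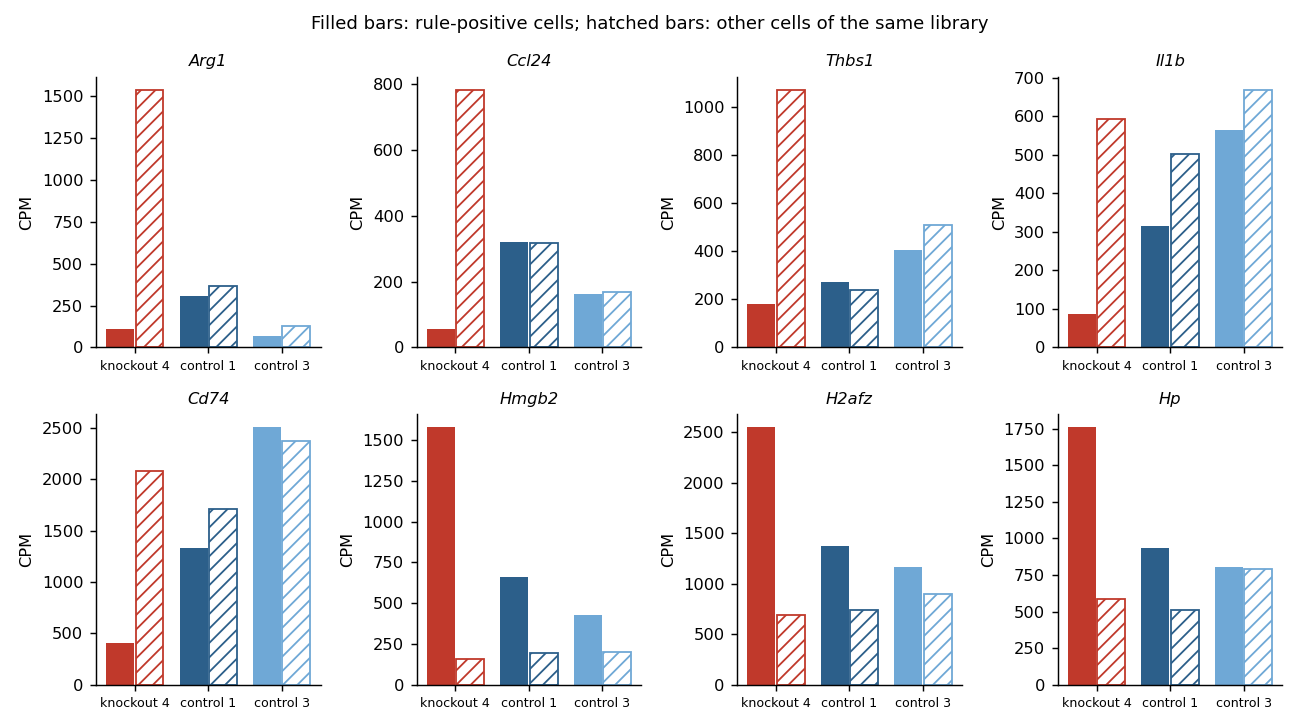
Levels (y axis, CPM) of 8 genes in rule-positive cells (filled bars) and other cells (hatched bars) of each library. In knockout 4, Arg1, Ccl24 and Thbs1 are high in other cells and low in rule-positive cells (110.0 against 1536 CPM for Arg1), and Hmgb2, H2afz and Hp are high in rule-positive cells.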

How the data were processed

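Single cells were measured in 3 libraries. The authors deposited raw UMI counts per gene and barcode, made with Cell Ranger 3.0.2, bcl2fastq and GRCm38 per the submitters' processing notes; they were used unchanged. Of 53802 gene identifiers, 53706 were found in GENCODE M21, used for positions. The matrices held 5152, 4814 and 8109 barcodes (knockout 4, control 1, control 3), and 4457, 4115 and 7449 passed the filters. The series text gives 5229, 4860 and 8149 cells, slightly more than these barcodes.

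The rule-positive cells, gene lists and tests were chosen with earlier results of these data known. Counts were summed per library over rule-positive and over other cells. edgeR 4.0.16 (R 4.3.3) was run with TMM scaling, the filterByExpr minimum and glmQLFTest (two-sided, after glmQLFit), Benjamini-Hochberg adjustment and a threshold of 0.05; the members-against-others test left out the rule genes and 5 cell-cycle lists. Alternatives were DESeq2 1.42.0, other size factors, no low-count filter, at least 3 rule genes, thinning to 3000 UMIs, and leaving out deep cells, cells with lymphocyte markers or a library. Levels of cells grouped by the number of rule genes were added after the data were seen. Named were the rule genes and list members, the 12 highest and 12 lowest differences against other cells with at least 30 UMIs seen or expected, and up to 10 genes per direction by p in the other tests. The tests were first tried on simulated counts. One gene that the naming rule would give is not reported here.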

Additional observations from a re-analysis of the deposited data

Results flagged for a closer look

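The knockout effect differed between rule-positive cells and the other cells for 330 genes by the edgeR interaction test, which compares the effects directly; the 20 with the lowest p, 10 in each direction, are given as log2 differences of the knockout effect in rule-positive cells minus that in other cells. Higher in rule-positive cells were Gm42418 at 1.57, Hmgb2 at 1.80, H2afz at 1.18, Saa3 at 1.62, Hp at 1.06, Hist1h1b at 1.84, Selenoh at 1.71, Hist1h2bc at 1.55, Hmgn2 at 1.49 and Mcemp1 at 1.16. Lower were Ccl24 at -3.90, Arg1 at -3.40, Cd74 at -2.29, Thbs1 at -2.56, Clec7a at -2.65, Apoe at -1.56, Fth1 at -1.19, Il1b at -2.41, Cxcl2 at -1.86 and Rgs1 at -2.42. Of the 84 knockout UMIs of Hist1h1b in rule-positive cells, 34 lay in 1 cell, and without cells of high UMI count its difference turned to -0.43; DESeq2 did not call it. For Gm42418 1 cell held 61.4% of the knockout UMIs in rule-positive cells, and for Saa3 43.0%. Cell-cycle list genes among these 20 are not independent of the rule, and their differences are a description. Groups here hold 1 or 2 libraries, too few to look for a sample far from the others.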

How the results depend on the processing

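The share of rule-positive cells moved with the rule and with depth. With at least 3 rule genes it was 0.651% in knockout 4, 0.486% in control 1 and 0.188% in control 3 (knockout over control mean 1.93), and with at least 4 it was 0.449%, 0.292% and 0.0671% (2.50). Thinned to 1500, 3000 and 5000 UMIs it was 0.366%, 0.679% and 1.05% in knockout 4, 0.285%, 0.513% and 0.819% in control 1, and 0.0584%, 0.135% and 0.262% in control 3 (ratios 2.13, 2.10 and 1.94). Without cells of high UMI count control 3 fell to 0.589%. Against control 3 alone the ratio was 1.53 and against control 1 alone 0.723. Rule-positive against other cells gave 54 calls, and 456 with no low-count filter, 916 with at least 3 rule genes, 339 after thinning, 989 without cells of high UMI count, 15 without cells bearing lymphocyte markers and 1 with no replicate block; leaving out a library gave 190 to 552 (227 without knockout 4, 190 without control 1, 552 without control 3). Of 24 named genes, 23 stayed called with DESeq2, 10 without lymphocyte-marker cells. Knockout against control in rule-positive cells gave 47 calls, and 8 with DESeq2, 255 with no filter, 84 without cells of high UMI count and 204 without lymphocyte-marker cells; 7 of 20 named genes passed in all tested settings, all kept their direction, and leaving out a control leaves 1 library against 1, with no test. The interaction gave 330 calls, and 53 with DESeq2 and 89 without cells of high UMI count, where Hist1h1b turned to -0.43. The causes were not tested. No paired analysis was possible because knockout and control libraries share no replicate number. Depth limits cells near the rule: 82 of 119 cells with 2 rule genes held 2 rule-gene UMIs.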
